A study of Mus musculus with 4 samples.

Results

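The 84 genes described here encode the matrix metalloproteinases (MMPs), their tissue inhibitors (TIMPs), the membrane-bound ADAM proteases, the secreted ADAMTS proteases and the ADAMTS-like proteins. They were taken by name from a table of 23847 gene rows: every symbol that starts with Mmp and a digit, Timp1 to Timp4, every symbol that starts with Adamts, and every symbol that starts with Adam and a digit. The rule for names used no measured value, but the set was chosen with earlier results of these data known. The set holds 23 MMP, 4 TIMP, 33 ADAM, 19 ADAMTS and 5 ADAMTS-like genes.

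Ventricles were taken from C57BL/6 males on postnatal day 21, and their polyadenylated RNA was sequenced. The 2 libraries called Cdk8Tg carried a transgene that overexpresses Cdk8 in the heart only, and 2 libraries were labelled wild type (WT). The sources used here name no promoter for the transgene and do not say that each library came from a different mouse, and the p-values rest only on how far these libraries spread, which may be technical. Cdk8, the cyclin-dependent kinase of the Mediator complex, stood at 7309 and 8122 FPKM (fragments per kilobase of transcript, scaled to library size) in the Cdk8Tg pair, against 7.89 and 9.86 FPKM in the WT pair.

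MMPs are zinc-dependent enzymes that cut collagens and other matrix proteins outside the cell, and TIMPs bind their active site and block it. ADAMs sit in the cell membrane and release the outer parts of growth factors and receptors, with ADAM10 and ADAM17 as the best-known sheddases. ADAMTS enzymes are secreted and cut procollagens or large proteoglycans such as versican, while ADAMTS-like proteins share their ancillary domains but have no protease domain and bind fibrillin microfibrils. In the heart these proteins are known for turning over the matrix during growth, infarction and pressure overload, and much of their expression lies in fibroblasts.

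Each library was ventricle with all its cell types, so a change in the number of cells of a type and a change in RNA per cell cannot be told apart. Some libraries stood apart in markers of other tissues. Cdk8Tg replicate 2 held the fat markers Ucp1 at 10.7 and Cfd at 6.38 FPKM, and 4 fat markers summed to 22.0 FPKM there against 0.416, 1.69 and 0.0619 FPKM in Cdk8Tg replicate 1 and WT replicates 1 and 2. Atrial muscle RNA was also uneven within groups, with the light chain Myl7 at 52.7 FPKM in Cdk8Tg replicate 2 and 136 FPKM in WT replicate 1 but at 8.51 and 11.6 FPKM in their group mates. The 4 atrial markers together summed to 861 and 2416 FPKM in Cdk8Tg and to 670 and 225 FPKM in WT. In the test described below 1 of the 4 was called higher, and the authors' deposited table called 2 higher and 2 lower. The cardiomyocyte markers Myh6 and Tnnt2 were at 3622 FPKM or more in every library. Depth, read from the step that 1 fragment makes in low values, was near 13.3 and 13.2 M (mega) fragments for Cdk8Tg and 15.2 and 15.4 M for WT, assuming a scaling to the own total of every library that no source used here states. At these depths a 2-kb transcript at 1 FPKM rests on 26.4 to 30.7 fragments.

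Most of the 84 genes were at low levels in these ventricles. A mean of at least 10 FPKM over the 4 libraries was reached by 16 genes, 17 lay between 1 and 10, 21 between 0.1 and 1 and 14 above 0 but under 0.1, and 16 were listed at 0 in all 4 libraries. Timp3, an inhibitor that stays bound to the matrix, had the highest mean, and Mmp2, the gelatinase that cuts denatured collagen and basement membrane, came next. The genes at 0 were 11 ADAMs, among them Adam18, Adam24, Adam29 and the Adam6 pair, which are known from testis, as well as Adamts13, Adamts18, Mmp1a, Mmp1b and Mmp20, the enzyme of tooth enamel. A gene listed at 0 was not detectable at this depth. The scatter plot of mean levels shows that the genes above 1 FPKM lay near the line of equal levels, with a few exceptions.

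**Figure D1:**
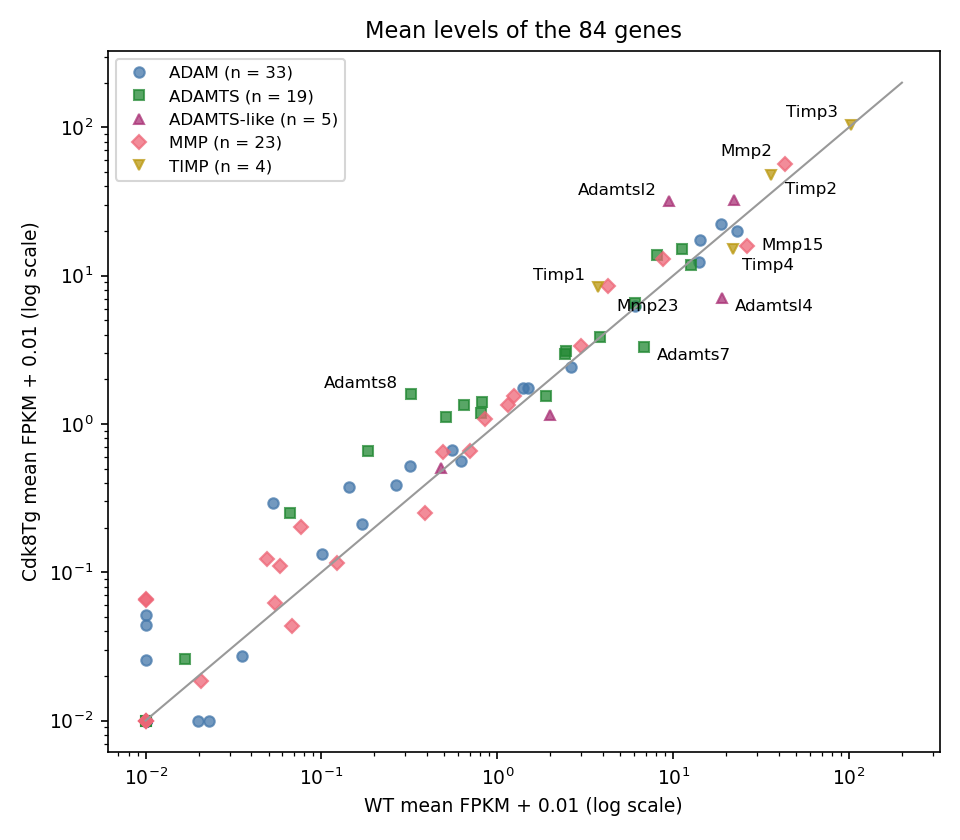
Mean FPKM of each of the 84 genes in WT (x axis) and Cdk8Tg (y axis), both with 0.01 added on log scales, with symbols by family and a line of equal levels. Adamtsl2 and Adamts8 lie above the line, Adamtsl4 and Adamts7 below it, and genes listed at 0 sit at the lower left corner.

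Of the 33 genes with a mean of at least 1 FPKM, 6 rose and 3 fell in Cdk8Tg. The test was limma on log2(FPKM + 1) over all tested rows of the table, with Benjamini-Hochberg adjusted p under 0.05, and 14 of the 33 had an unadjusted p under 0.05, against 41.6% of all tested rows. The rises were Adamtsl2, Timp1, Mmp23, Adamts2, Mmp14 and Mmp2, and the falls were Adamtsl4, Adamts7 and Mmp15. These calls made up 27.3% of the tested members (18.2% rises and 9.09% falls), against 24.9% of all 11888 tested rows (16.9% rises and 7.98% falls). The median log2 change was 0.13 over the 33 genes and 0.13 over all tested rows. The groups did not overlap, with Cdk8Tg higher, for 45.5% of the 33 genes against 49.2% of all tested rows, and with Cdk8Tg lower for 21.2% against 21.1%. So as a set these genes changed about as often as the rest of the table, and the results lie in single members.

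Several of these calls were lost under another scaling or when 1 library was left out. Leaving out a library leaves 1 residual degree of freedom, and calls over all rows then also became fewer. A call lost in this way therefore does not show that it rested on the library left out, and the log2 changes are the better guide. After median-of-ratios scaling, which set the median change of all tested rows to 0.00, 2 members rose (Adamtsl2 and Timp1) and 3 fell, against 7.96% rises and 11.7% falls over all rows. With all libraries scaled to the same FPKM sum, which raised that median to 0.30, 11 rose and 3 fell, against 41.2% rises and 5.49% falls over all rows. Quantile normalization gave 2 rises and 3 falls, against 8.34% and 8.74%. In the authors' deposited table, 38 members were tested, of which 4 were higher (Adamtsl2, Mmp23, Adamts2 and Adamts8) and 4 lower (Adamtsl3, Adamtsl4, Mmp15 and Adamts7) at q under 0.05, against 5.53% higher and 8.43% lower of all 12393 tested rows. All 9 called genes kept their sign under every alternative tried, but for most alternatives this was fixed in advance. The filters, the variance trend and the replicate block left the log2 change as it was. The groups of these genes did not overlap, so leaving out 1 library could not turn a sign. Only the other scalings and the authors' table could have done so, and they rest on the same libraries. The plot of changes gives both scales, and the grid of calls gives each gene under each alternative.

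**Figure D2:**
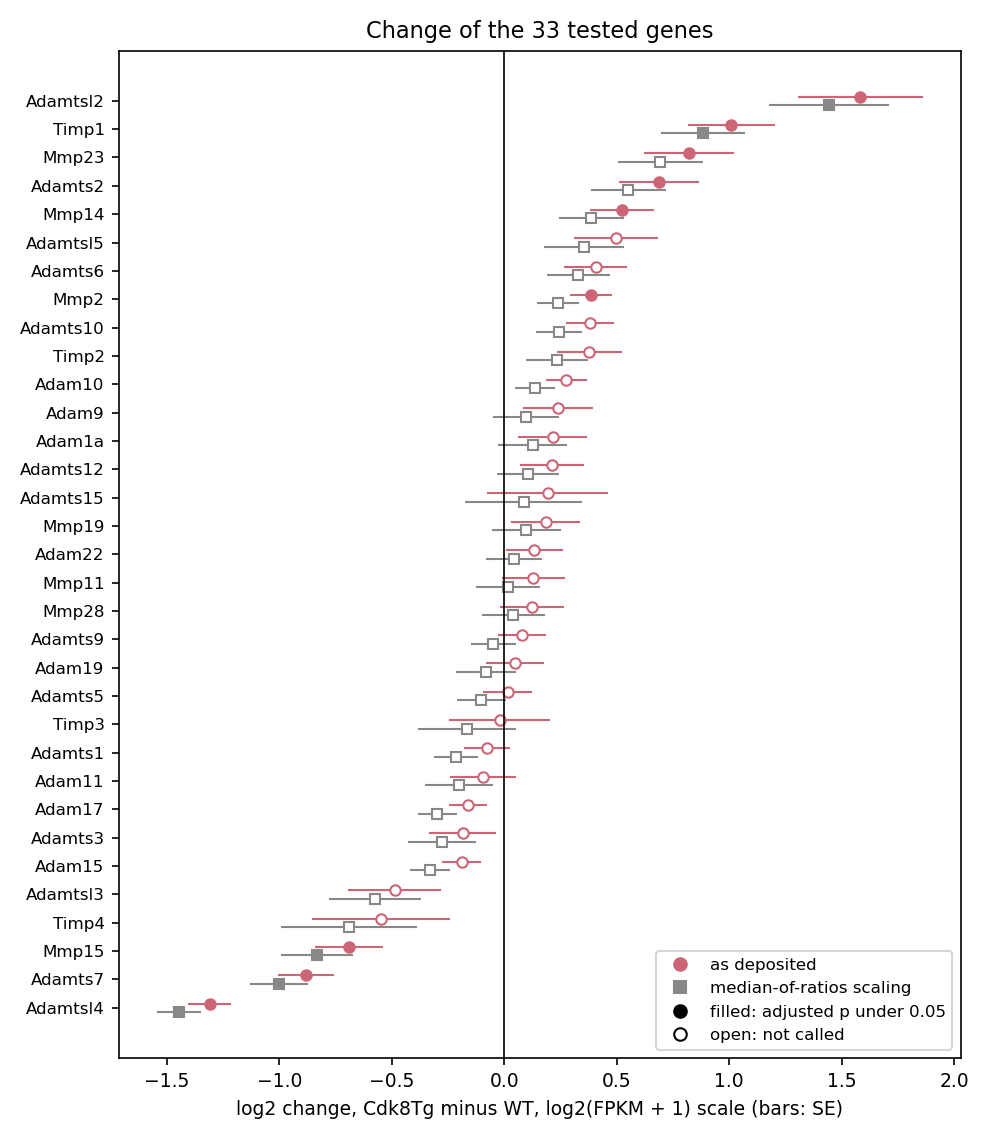
Log2 change, Cdk8Tg minus WT, on the log2(FPKM + 1) scale for the 33 tested genes, as deposited and after median-of-ratios scaling, with SE bars and filled symbols for adjusted p under 0.05. Adamtsl2 is the largest rise at 1.58 and Adamtsl4 the largest fall at -1.31, and the 4 rises that lose their fill after scaling are Mmp23, Adamts2, Mmp14 and Mmp2.

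Among the gelatinases, Mmp2 was at 53.5 and 59.4 FPKM in Cdk8Tg, compared with 41.3 and 44.6 FPKM in WT. The groups did not overlap, and the Cdk8Tg mean was 1.31 times the WT mean, a log2 change of 0.38 ± 0.09 (SE; by limma, adjusted p = 0.037). Median-of-ratios scaling ended the call (log2 change 0.24, adjusted p = 0.13), as did leaving out any one of Cdk8Tg replicate 2 (0.31, adjusted p = 0.11), WT replicate 1 (0.33, adjusted p = 0.17) and WT replicate 2 (0.44, adjusted p = 0.13). In the authors' deposited table Mmp2 had q = 0.457. Mmp9, the gelatinase of neutrophils and macrophages, was at 0.177 and 0.209 FPKM in the Cdk8Tg pair and 0.0885 and 0.0442 FPKM in the WT pair, under the limit for the test. Mmp2 supplied 47.2% to 56.3% of the summed FPKM of all 23 MMP genes in each library.

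Among the membrane-type MMPs, which are anchored at the cell surface, Mmp14 and Mmp15 were the tested members and went opposite ways. Mmp14, the activator of pro-MMP2 and a collagenase, was at 14.1 and 11.8 FPKM with the transgene, against 9.78 and 7.70 FPKM in WT. Its log2 change of 0.52 ± 0.14 was at the edge of the threshold (SE; by limma, adjusted p = 0.0496), and 9 of 13 alternatives ended the call, with adjusted p up to 0.21. Mmp15, a close relative that can also activate pro-MMP2, was at 17.9 and 13.9 FPKM in Cdk8Tg, compared with 23.7 and 28.7 FPKM in WT. Its log2 change was -0.69 ± 0.15 (SE; by limma, adjusted p = 0.029). Mmp15 stayed called under the 3 other scalings and in the authors' deposited table (q = 8.6e-04), and lost its call with no filter (adjusted p = 0.086) and without any one of Cdk8Tg replicate 2 (0.083), WT replicate 1 (0.072) and WT replicate 2 (0.14). In each of the 4 libraries Mmp15 was above Mmp14. The remaining membrane-type genes, Mmp16, Mmp17, Mmp24 and Mmp25, were at most at 0.850 FPKM in any library.

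Mmp23, a membrane-tethered MMP without the usual hemopexin domain, was at 6.61 and 10.3 FPKM in the Cdk8Tg pair and 4.53 and 4.001 FPKM in the WT pair. Every Cdk8Tg value was above every WT value, with a log2 change of 0.82 ± 0.20 (SE; by limma, adjusted p = 0.038), and median-of-ratios scaling ended the call at an adjusted p of 0.057. Without Cdk8Tg replicate 2, the library with fat markers, its log2 change was 0.53 (adjusted p = 0.071), and the call was also lost without WT replicate 1 (0.89, adjusted p = 0.11) and WT replicate 2 (0.75, adjusted p = 0.17). The authors' deposited table gave Mmp23 a q of 0.0323. Mmp11, a stromelysin-like enzyme of stromal cells, was at 3.76 and 2.95 FPKM with the transgene, against 3.20 and 2.75 FPKM in WT, with overlapping groups and a log2 change of 0.13 ± 0.14 that turned to -0.04 under quantile normalization. Mmp19 and Mmp28 had means of 1.52 and 1.32 FPKM in Cdk8Tg and 1.23 and 1.14 FPKM in WT, also with overlapping groups, and other genes on the opposite strand overlap 28.3% of the Mmp19 exon bases.

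The collagenase and stromelysin genes that lie side by side on chromosome 9 were low or absent in both groups. This cluster holds 10 members (Mmp13, Mmp12, Mmp1b, Mmp3, Mmp1a, Mmp10, Mmp8, Mmp27, Mmp20 and Mmp7) between 7272514 and 7699585 of GRCm38. Mmp3, stromelysin 1, was the highest at 0.692 and 1.46 FPKM in Cdk8Tg, compared with 0.949 and 0.725 FPKM in WT, and 14.6% of its 31-base stretches occur in other genes, chiefly Mmp10. Mmp13, the main interstitial collagenase of the mouse, followed with 0.2996 and 0.186 FPKM against 0.499 and 0.262 FPKM. The neutrophil collagenase Mmp8 did not exceed 0.0864 FPKM in any library. The groups of Mmp3, Mmp13 and Mmp8 overlapped.

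The promoters of this cluster are shown because they share a sequence feature. Many MMP promoters are known to carry a site for AP-1, the Fos and Jun dimer that responds to growth factors and stress. The letters TGANTCA, read on both strands, were searched in RefSeq promoter windows from 250 bases before to 50 bases after each start (GRCm38.p6), which were given for 53 of the 84 genes. They were found for 13 of these 53 genes (24.5%) and for 8.97% of all 27025 genes with a window. Of the 10 cluster genes, 8 had a match, all before the start site, and Mmp8 and Mmp27 had none. Of the 24 tested members with a window, Adam19 alone had a match, and 7 of the 9 called genes had a window with none. The stretches below show the 8 matches of the cluster in genomic order with 17 bases on each side. They read 5′ to 3′ on the strand of the gene, and the capitals mark the letters TGANTCA.
Mmp13: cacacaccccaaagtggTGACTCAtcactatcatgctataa
Mmp12: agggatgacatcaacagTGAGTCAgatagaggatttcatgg
Mmp1b: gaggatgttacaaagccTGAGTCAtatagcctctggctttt
Mmp3: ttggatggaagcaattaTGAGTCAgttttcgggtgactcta
Mmp1a: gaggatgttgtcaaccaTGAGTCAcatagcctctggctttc
Mmp10: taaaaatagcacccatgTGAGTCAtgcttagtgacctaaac
Mmp20: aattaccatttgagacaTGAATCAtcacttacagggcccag
Mmp7: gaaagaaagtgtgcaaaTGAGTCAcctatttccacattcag
The matches began between 95 bases (Mmp20) and 35 bases (Mmp13) before the start, at offsets of -95 and -35. The Mmp3 stretch lies at chr9:7445759-7445799 and the Mmp13 stretch at chr9:7272462-7272502, both on the plus strand. TGAGTCA stood in 6 of the 8 stretches, TGACTCA in Mmp13 and TGAATCA in Mmp20. The search left the middle base open, so TGAATCA was counted as a match, also as the only match of Adam20 and Adam25. A match is a description of letters and not a bound site, and no match says only that these letters are not in that window.

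The TIMPs, which inhibit MMPs and some ADAM and ADAMTS enzymes, were all expressed and did not move together. Timp1, the secreted inhibitor that is low in resting heart and known to be induced by injury, was at 7.46 and 9.37 FPKM in the Cdk8Tg pair and 4.51 and 2.93 FPKM in the WT pair. The groups did not overlap and the Cdk8Tg mean was 2.26 times the WT mean, 8.42 ± 1.35 against 3.72 ± 1.12 FPKM (SD, n = 2 per group). The log2 change of Timp1 was 1.01 ± 0.19 (SE; by limma, adjusted p = 0.022), and it remained called under all 3 other scalings. Leaving out Cdk8Tg replicate 2 (log2 change 0.86, adjusted p = 0.076) or WT replicate 2 (0.76, adjusted p = 0.092) ended the call, as did testing with no filter (adjusted p = 0.076), and the authors' deposited table gave a like change (log2 1.02) with q = 0.522. The Timp1 gene lies on chromosome X at 20870166 to 20874735 of GRCm38.

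Timp2, Timp3 and Timp4 were not called on the deposited scale. Timp2, which inhibits MMP2 and also takes part in its activation with MMP14, was at 40.6 and 54.3 FPKM with the transgene, against 36.8 and 35.1 FPKM in WT (log2 change 0.38 ± 0.15 SE; by limma, adjusted p = 0.11). Its groups did not overlap, and it was called with equal FPKM sums (adjusted p = 0.031) and without Cdk8Tg replicate 1 (log2 change 0.58, adjusted p = 0.021). Without Cdk8Tg replicate 2 the Timp2 change was 0.17 (adjusted p = 0.28). Timp3 was at 79.8 and 128 FPKM in Cdk8Tg, compared with 95.0 and 110.3 FPKM in WT. The WT values of Timp3 lay between the Cdk8Tg values, and its log2 change of -0.02 ± 0.22 flipped sign with equal FPKM sums (0.18) and with quantile normalization (0.02). The Timp3 gene sits inside Syn3, whose exons overlap 21.3% of its exon bases on the opposite strand. Timp4, the TIMP that is most abundant in heart compared with other organs, was at 10.6 and 19.6 FPKM in the Cdk8Tg pair and 17.8 and 26.2 FPKM in the WT pair. The 2 groups of Timp4 overlapped, with a log2 change of -0.55 ± 0.31 (SE; by limma, adjusted p = 0.23), and both groups varied by over 5 FPKM around their means of 15.1 ± 6.39 and 22.0 ± 5.96 FPKM (SD, n = 2 per group). Without Cdk8Tg replicate 1 the Timp4 change was -0.13 and without Cdk8Tg replicate 2 it was -0.97. With the replicate number as a block Timp4 was called (adjusted p = 0.025), although nothing says that the numbers pair the libraries.

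**Figure D3:**
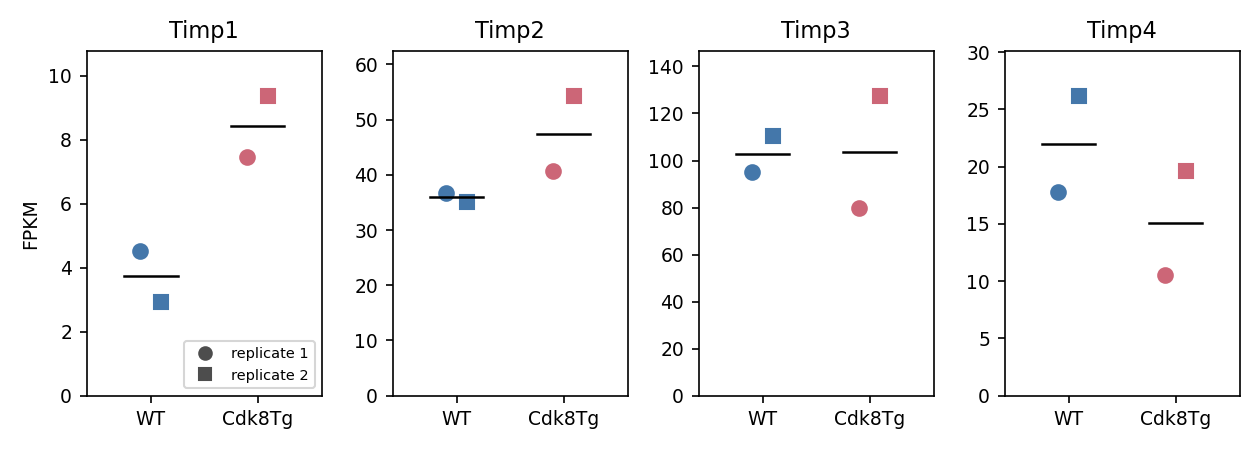
FPKM of Timp1 to Timp4 in each library (circles for replicate 1, squares for replicate 2) with the group mean as a horizontal line, each panel from 0 on its own scale. Timp1 and Timp2 separate the groups, at 7.46 and 9.37 against 2.93 and 4.51 FPKM for Timp1, while the groups of Timp3 and Timp4 overlap.

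The summed levels of inhibitors and enzymes show how far 1 library shapes the totals. The 4 TIMPs summed to 138 and 211 FPKM in Cdk8Tg and to 154 and 174 FPKM in WT, and the 23 MMPs to 101 and 105 FPKM against 87.7 and 92.9 FPKM. The ratio of these sums was 1.37 and 2.00 in Cdk8Tg and 1.76 and 1.88 in WT. The WT ratios lay between the Cdk8Tg ratios, and Timp3 alone supplied 57.6% to 63.2% of the TIMP sum. Of the 33 tested genes, 19 had their highest value in Cdk8Tg replicate 2 (57.6%) and 4 in Cdk8Tg replicate 1 (12.1%), against 40.05% and 26.1% of all tested rows.

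One variant of the AP-1 letters stood in the Timp1 window. The Timp1 promoter is known for a site that reads TGAGTAA in place of TGAGTCA, and these letters were searched after the first search had given no match for Timp1. On either strand they occurred for 3.09% of all genes with a window and, among the 53 members with one, for Timp1 alone. The stretch is shown with 11 bases on each side and the variant in capitals, on the plus strand at chrX:20870181-20870209 of GRCm38.p6, where its first variant base lies 26 bases past the first base of the RefSeq start.
Timp1: cggtgggtggaTGAGTAAtgcgtccagga

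Among the 33 tested genes, ADAMTS-like genes held both the largest rise and the largest fall on the log2(FPKM + 1) scale. Adamtsl2, a microfibril protein that binds fibrillin and latent TGF-beta binding proteins, was at 22.1 and 41.6 FPKM with the transgene, against 9.67 and 9.29 FPKM in WT. Both Cdk8Tg values were above both WT values, although the Cdk8Tg libraries also differed from each other, and the means were 31.8 ± 13.8 and 9.48 ± 0.27 FPKM (SD, n = 2 per group). The log2 change of Adamtsl2 was 1.58 ± 0.28 (SE; by limma, adjusted p = 0.017), and without Cdk8Tg replicate 2 it was 1.14 (adjusted p = 0.011). The call was lost when WT replicate 1 (1.61, adjusted p = 0.080) or WT replicate 2 (1.56, adjusted p = 0.098) was left out and with no filter (adjusted p = 0.069), and the authors' deposited table gave q = 8.6e-04. On GRCm38, Adamtsl2 lies on chromosome 2 at 27079379 to 27108981.

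Adamtsl4, a fibrillin-binding protein known from the lens zonule, was at 6.88 and 7.17 FPKM in Cdk8Tg, compared with 17.9 and 19.98 FPKM in WT. The Cdk8Tg values were close together and far below both WT values, at 0.371 times the WT mean. The log2 change of Adamtsl4 was -1.31 ± 0.09 (SE; by limma, adjusted p = 0.0034). Among the 9 called genes, Adamtsl4 alone was called under all 13 alternatives, with log2 changes from -1.59 to -1.13 and adjusted p up to 0.035. It lies on chromosome 3 at 95676201 to 95687917 of GRCm38, and no annotated exon of another gene overlaps its exons.

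The other ADAMTS-like genes were not called. Adamtsl5, which also binds microfibrils, was at 25.9 and 38.8 FPKM in the Cdk8Tg pair and 22.5 and 21.9 FPKM in the WT pair, a log2 change of 0.50 ± 0.19 (SE; by limma, adjusted p = 0.10). Most of the difference lay in Cdk8Tg replicate 2, and it was called with equal FPKM sums (adjusted p = 0.036) and without Cdk8Tg replicate 1 (log2 change 0.78, adjusted p = 0.012). Without Cdk8Tg replicate 2 the Adamtsl5 change was 0.21 (adjusted p = 0.21). Adamtsl3 had means of 1.14 ± 0.42 FPKM in Cdk8Tg and 1.99 ± 0.55 FPKM in WT (SD, n = 2 per group) with an adjusted p of 0.14 in limma, and the authors' deposited table called it lower (q = 0.0022). Adamtsl1 stayed between 0.419 and 0.545 FPKM in all 4 libraries.

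Among the ADAMTS proteases, 1 of the 10 tested genes rose and 1 fell, against 16.9% rises and 7.98% falls of all tested rows. Adamts2, the main procollagen N-proteinase, which trims the amino-terminal propeptides of fibrillar collagens, was at 11.2 and 16.4 FPKM with the transgene, against 8.32 and 7.77 FPKM in WT. The groups did not overlap, with a log2 change of 0.69 ± 0.18 (SE; by limma, adjusted p = 0.044). Median-of-ratios scaling (0.55, adjusted p = 0.074) ended the call, as did leaving out any one of Cdk8Tg replicate 2 (0.43, adjusted p = 0.082), WT replicate 1 (0.73, adjusted p = 0.13) and WT replicate 2 (0.64, adjusted p = 0.18), and the authors' deposited table called Adamts2 higher (q = 0.0122). Its relatives were not called. Adamts3 was at 1.54 ± 0.357 FPKM in Cdk8Tg and 1.87 ± 0.108 FPKM in WT, and Adamts14, under the limit for the test, was at 1.1503 and 1.51 FPKM against 0.615 and 0.666 FPKM.

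Adamts7, which cuts cartilage oligomeric matrix protein and is known from vascular smooth muscle, was at 3.68 and 2.89 FPKM in Cdk8Tg, compared with 6.73 and 6.99 FPKM in WT. Every Cdk8Tg value lay below every WT value, and the Cdk8Tg mean was 0.479 times the WT mean. The log2 change of Adamts7 was -0.88 ± 0.12 (SE; by limma, adjusted p = 0.011), and 11 of 13 alternatives kept the call. Leaving out WT replicate 1 or 2 ended it (adjusted p of 0.062 and 0.082), and the authors' deposited table gave q = 8.6e-04. Adamts10, a fibrillin-binding enzyme and the highest of this class, was at 13.6 and 16.3 FPKM in the Cdk8Tg pair and 11.2 and 11.2 FPKM in the WT pair. Its log2 change of 0.38 ± 0.11 just missed the threshold (SE; by limma, adjusted p = 0.055), and it was called with a minimum of 5 FPKM (0.043), with equal FPKM sums (0.016) and without Cdk8Tg replicate 1 (0.039), while without Cdk8Tg replicate 2 its adjusted p was 0.17. Adamts6 was at 1.26 and 1.55 FPKM with the transgene, against 0.791 and 0.831 FPKM in WT (by limma, adjusted p = 0.089, and 0.036 with equal FPKM sums). Both WT values were under the limit of 1 FPKM, so Adamts6 entered the test only through its Cdk8Tg values. Its p-values, and its place among the rises with equal FPKM sums, are therefore no support for a rise. The groups of Adamts12 did not overlap either, at means of 2.94 and 2.41 FPKM.

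The proteoglycan-cleaving ADAMTS enzymes gave 0 calls among 4 tested genes by limma, 0 at an unadjusted p under 0.05, and 1 in the authors' deposited table. Adamts1, the highest of them, was at 11.6 and 12.1 FPKM in Cdk8Tg, compared with 13.6 and 11.6 FPKM in WT, with a log2 change of -0.08 ± 0.10 that became 0.10 with equal FPKM sums. Adamts5, the main aggrecanase of the mouse, had means of 3.86 ± 0.276 and 3.81 ± 0.259 FPKM, and Adamts9 had 6.48 ± 0.656 and 6.07 ± 0.228 FPKM in Cdk8Tg and WT (SD, n = 2 per group). Adamts15 was at 4.24 FPKM in Cdk8Tg replicate 2 and between 1.98 and 2.58 FPKM in the other libraries.

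Adamts8, of the same class, was the gene in the authors' deposited table (q = 0.0016) and lay just under the limit for the test. It was at 1.26 and 1.90 FPKM in the Cdk8Tg pair and 0.380 and 0.246 FPKM in the WT pair, and every Cdk8Tg value was above every WT value. At the estimated depth, and with the longest annotated transcript taken as the length, these values are about 57.5, 84.6, 19.8 and 12.9 fragments. The difference was 0.97 on the log2(FPKM + 1) scale, and with no filter on low values limma gave an adjusted p of 0.054. The Cdk8Tg mean of Adamts8 was 5.05 times its WT mean, on the FPKM scale, against 3.36 times for Adamtsl2. An antisense gene overlaps 10.6% of the exon bases of Adamts8.

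Among the genes further below the limit, 4 whose Cdk8Tg values lay above both WT values are named here as examples after their values were seen. None of them reached the 4-fold difference on FPKM + 0.1 that was set for naming. Other genes under the limit did not overlap either, such as Adamts19 at 0.951 and 1.26 FPKM in Cdk8Tg against 0.614 and 0.394 FPKM in WT. The share of such genes among all rows under the limit was not counted. Adamts4, an aggrecanase, was at 0.214 and 0.266 FPKM with the transgene, against 0.0563 and 0.0562 FPKM in WT, or about 12, 14.5, 3.6 and 3.6 fragments. Adam32, a testis ADAM, was at 0.297 and 0.273 FPKM against 0.0289 and 0.0576 FPKM, or about 8.9, 7.9, 1.0 and 2.0 fragments. Adam1b, which shares 33.4% of its 31-base stretches with other genes, came to about 16.2, 13.9, 5.8 and 6.9 fragments. With no filter, Adam32 had an adjusted p of 0.044 in limma, Adam1b one of 0.053 and Adamts4 one of 0.056. Adamts20 was at 0.995 FPKM in Cdk8Tg replicate 2 and between 0.147 and 0.296 FPKM in the other libraries, or at about 26.3, 86.9, 20.5 and 15 fragments in Cdk8Tg and WT replicates 1 and 2.

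**Figure D4:**
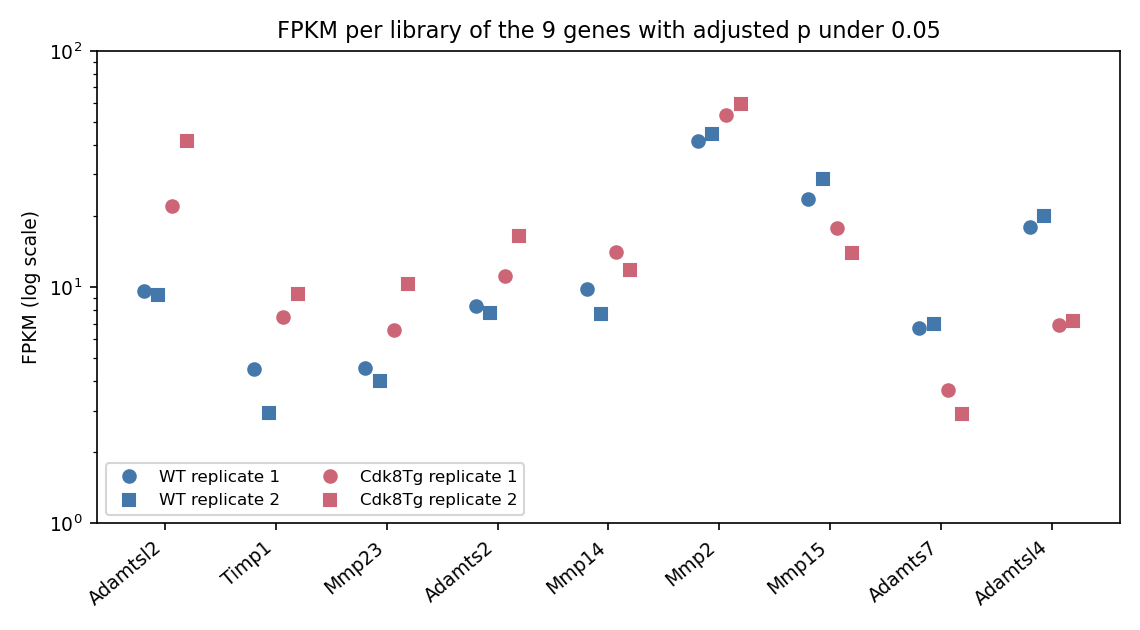
FPKM on a log scale of the 9 genes with limma adjusted p under 0.05, in order of their log2 change, with 1 point per library (circles for replicate 1, squares for replicate 2). The Cdk8Tg points lie above both WT points for the 6 genes at the left and below them for Mmp15, Adamts7 and Adamtsl4, and the Adamtsl2 points of Cdk8Tg stand at 22.1 and 41.6 FPKM.

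The ADAM family gave no call on the deposited scale with the limit of 1 FPKM. Of its 33 genes, 8 were tested and 0 were called by limma or in the authors' deposited table, and 1 (Adam10) had an unadjusted p under 0.05. Adam10 was called with equal FPKM sums (log2 change 0.46, adjusted p = 0.016), and Adam32, described above, with no filter. Adam15, an ADAM with an integrin-binding motif and the highest of the family, was at 19.4 and 20.8 FPKM in Cdk8Tg, compared with 22.2 and 23.9 FPKM in WT. Its groups did not overlap, with a log2 change of -0.19 ± 0.09 (SE; by limma, adjusted p = 0.16) that went to 0.00 with equal FPKM sums, and antisense exons overlap 20.6% of its exon bases. The sheddases ADAM10 and ADAM17 had changes of opposite sign on the deposited scale, and neither was called. Adam10 was at 16.7 and 17.9 FPKM in the Cdk8Tg pair and 14.8 and 13.5 FPKM in the WT pair (log2 change 0.28 ± 0.09 SE; by limma, adjusted p = 0.080). Adam17 was at 12.5 and 12.4 FPKM against 13.5 and 14.5 FPKM (-0.16 ± 0.08, adjusted p = 0.21), and its change was 0.02 with equal FPKM sums.

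Adam9, another widely expressed ADAM, was at 18.8 and 26.0 FPKM in Cdk8Tg and at 18.6 FPKM in both WT libraries, so Cdk8Tg replicate 2 alone was far from the others. Adam19, which is needed for heart development in the mouse, had means of 6.23 ± 0.153 and 6.05 ± 1.07 FPKM in Cdk8Tg and WT (SD, n = 2 per group). Adam11 and Adam22, ADAMs without protease activity that are known from neurons, had means of 2.40 and 1.73 FPKM in Cdk8Tg and 2.62 and 1.48 FPKM in WT. Adam1a lay at 1.75 and 1.38 FPKM on average, but 63.7% of its exon bases overlap other genes, so its value is uncertain.

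Genes that act with these proteases were taken from 6 lists with 73 genes, of which 55 were tested. In all, 14 rose and 2 fell (25.5% and 3.64%), against 16.9% and 7.98% of all tested rows, with a median log2 change of 0.28 against 0.13. Collagens and elastin, the substrates of MMPs, gave 4 rises among 8 tested genes and 0 falls. Col1a1, the main chain of type I collagen, was at 79.9 and 100.7 FPKM with the transgene, against 56.4 and 42.0 FPKM in WT (log2 change 0.87, adjusted p = 0.025), and Col1a2, Col5a1 and Col5a2 were the other rises, by 0.82, 0.42 and 0.67. After median-of-ratios scaling the rises were 2, Col1a1 and Col1a2.

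Genes of procollagen processing and crosslinking gave 3 rises among 7 tested genes. Pcolce, the enhancer of the procollagen C-proteinase, rose by 0.82 (from 54.6 and 46.4 to 79.7 and 100.1 FPKM), the lysyl oxidase-like gene Loxl1 by 0.89 and Loxl2 by 0.52, the last lost after median-of-ratios scaling (by limma, adjusted p = 0.017, 0.011 and 0.043 in that order, and 0.094 for Loxl2 after scaling). Bmp1, the C-proteinase itself, was at 19.2 and 21.3 FPKM against 18.4 and 16.03 FPKM and was not called. Among 10 tested ADAMTS substrates 3 rose, namely Fbn2, the fibrillin of embryonic tissue, by 1.92, versican (Vcan) by 1.06 and Ltbp4 by 0.39. Fbn2 was at 7.82 and 6.19 FPKM in Cdk8Tg, compared with 1.57 and 0.712 FPKM in WT, and Vcan at 8.08 and 11.1 FPKM against 4.94 and 3.22 FPKM. The call of Ltbp4 was lost after median-of-ratios scaling (adjusted p = 0.15).

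Protease activators and membrane regulators went both ways, with 1 rise and 2 falls among 15 tested genes. Tspan17, a tetraspanin that carries ADAM10 to the cell surface, was at 8.87 and 11.8 FPKM in the Cdk8Tg pair and 3.28 and 2.98 FPKM in the WT pair (log2 change 1.45 ± 0.15 SE; by limma, adjusted p = 0.0061). Bsg, the membrane glycoprotein known as an inducer of MMPs and as a partner of lactate transporters, fell by 0.53 from 716 and 748 to 547 and 473 FPKM, and the proprotein convertase Pcsk6 fell by 0.35. The Bsg call was lost with quantile normalization (adjusted p = 0.197) and the Pcsk6 call with equal FPKM sums (adjusted p = 0.18). Furin, the convertase that activates membrane-type MMPs and ADAMs, was at 23.5 and 24.8 FPKM against 19.4 and 22.2 FPKM and was not called. Reck, a membrane inhibitor of MMPs, was not called either, at 3.32 and 4.28 against 2.76 and 3.09 FPKM.

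Substrates of ADAM10 and ADAM17 gave 3 rises among 10 tested genes: the amyloid precursor gene App by 0.62, the membrane chemokine gene Cx3cl1 by 0.68 and Hbegf, a growth factor released by shedding, by 0.49, the last lost after median-of-ratios scaling (by limma, adjusted p = 0.018, 0.020 and 0.029 in that order, and 0.064 for Hbegf after scaling). In the authors' deposited table Loxl2, Ltbp4, Col5a1, Hbegf, App and Bsg were not called, with q from 0.0715 (App) to 0.494 (Ltbp4). Bsg stood there in a locus listed for 46 genes. Other related genes were called there but not by limma. These were Lox (log2 1.13), Eln (1.38), Ltbp2 (2.17) and Thbs1 (0.86), which were higher, and Il6ra (-1.03), which was lower, with q up to 0.0246. The plasminogen system gave 0 calls among 5 tested genes by limma or in the authors' deposited table, with 2 at an unadjusted p under 0.05. The plasminogen activator gene Plat was at 9.32 and 9.50 FPKM with the transgene, against 9.99 and 9.11 FPKM in WT.

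Markers of some cell types also differed between the groups. Over all tested rows 16.9% rose and 7.98% fell. These shares were 7.96% and 11.7% after median-of-ratios scaling, 41.2% and 5.49% with equal FPKM sums, and 8.34% and 8.74% after quantile normalization. In the authors' deposited table they were 5.53% and 8.43%. Fibroblast markers gave 5 rises among 6 tested genes and summed to 759 and 964 FPKM in Cdk8Tg against 602 and 589 FPKM in WT, with 3 rises after median-of-ratios scaling, 6 with equal FPKM sums, 4 after quantile normalization and 2 in the authors' deposited table. Col1a1 is among the fibroblast rises and was also counted with the collagens. Macrophage markers gave 3 falls among 6 and summed to 56.7 and 70.1 against 95.5 and 93.5 FPKM. Cardiomyocyte markers gave 4 falls among 5, with sums of 12739 and 10918 against 17898 and 17070 FPKM. The cardiomyocyte falls were 4 after median-of-ratios scaling, 2 with equal FPKM sums, 1 after quantile normalization and 1 in the authors' deposited table. Endothelial markers and markers of smooth muscle and pericytes gave 0 calls among 5 each by limma, 0 at an unadjusted p under 0.05 and 0 in the authors' deposited table. Of the 4 neutrophil markers in the table, S100a8 (1.38 and 1.08 against 3.02 and 1.19 FPKM) and S100a9 (5.04 and 3.49 against 3.78 and 2.29 FPKM) were detected with overlapping groups, and Elane and Mpo were listed at 0 in all 4 libraries. The part of these shifts in the changes of the protease and inhibitor genes was not tested.

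**Figure D5:**
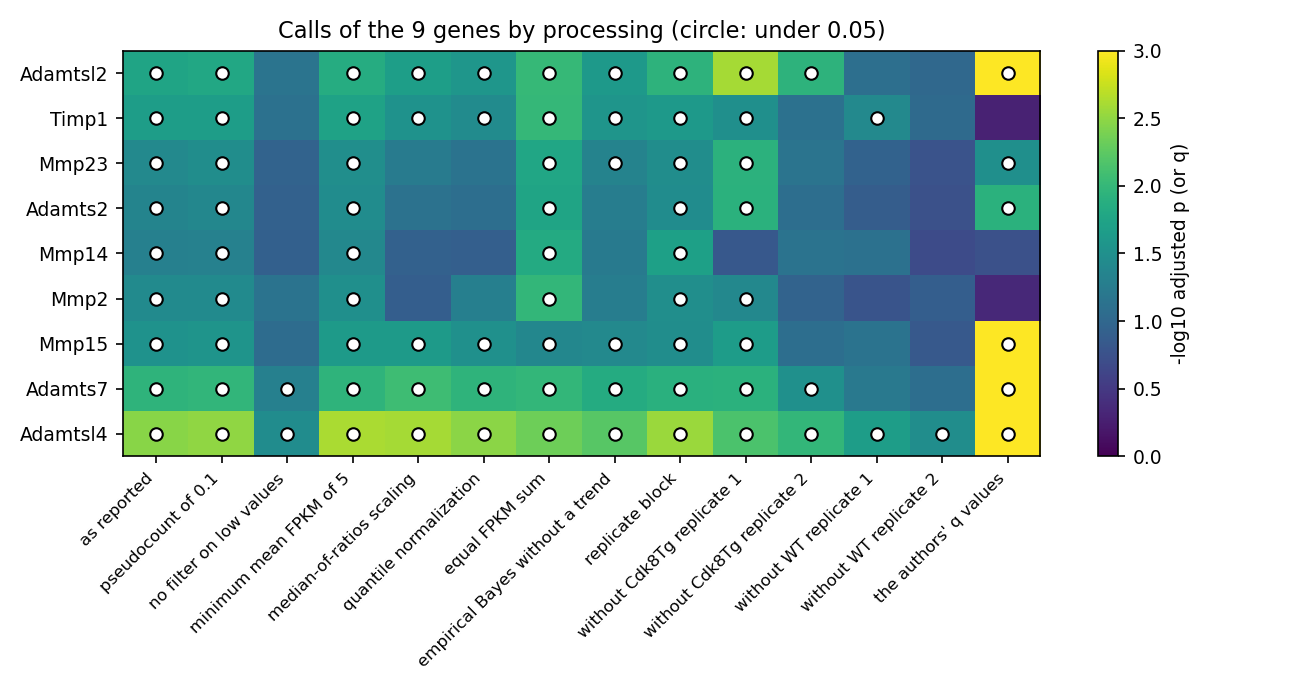
Adjusted p of the 9 called genes (rows) as reported and under 13 alternatives (columns), as −log10 with a colour scale from 0 to 3 and a circle where it is under 0.05, the last column showing q from the authors' deposited table. Adamtsl4 has a circle in every column, and Mmp14 has the fewest.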

How the data were processed

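Per the labels' protocols, RNA of frozen ventricles was extracted with Trizol for stranded polyA libraries. TopHat 1.0.0 with the mm10 build, Cufflinks and Cuffdiff are named per the submitters' processing notes. Versions of the last pair, the annotation, the strand setting and the scaling were not found in those sources. The authors deposited FPKM per gene and library, and a Cuffdiff table with FPKM, p-values and q-values per comparison, per the file headers.

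Groups and replicate numbers came from the titles. Since FPKM cannot enter a count model, log2(FPKM + 1) of all 4 libraries was fitted with limma 3.58.1 (R 4.3.3), with 2 residual degrees of freedom and empirical Bayes shrinkage along a trend, on the 11888 rows with a mean of at least 1 FPKM. Fold changes on this scale understate those of low genes. Benjamini-Hochberg adjusted p under 0.05 was called. The procedure was also run on simulated data with independent normal noise of the fitted variances. Such data share no scaling shift or tissue difference between libraries, so that run says nothing on how reliable the calls are here. The members and lists were chosen with earlier results of these data known. Per-library values were given for called members, all TIMPs, the highest member of each functional group, and members under the limit that differed at least 4-fold on FPKM + 0.1. From each related list up to 4 called genes with the smallest p were named, and other genes are given as means or examples. Positions, exon overlaps and shared 31-base stretches came from GENCODE M21 (GRCm38), where all 84 symbols matched, and promoter windows from RefSeq. Depth was estimated from the spacing of values under 0.1 FPKM among genes with 1 transcript of over 800 bases, after a correction of transcript length that was fitted per library. Without that correction it came to 12.4, 12.0, 14.2 and 14.1 M fragments. Fragment numbers of single genes used the corrected depth and the longest GENCODE transcript, less that correction. They are rough, since the annotation behind the deposited FPKM was not found. Alternatives were other scalings (median of ratios, quantile, equal FPKM sum), filters and pseudocount, no variance trend, a block for the replicate number, the removal of each library in turn, and the authors' q-values.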

Additional observations from a re-analysis of the deposited data

How the results depend on the processing

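With 2 libraries per group, the counts of calls moved between alternatives, while most alternatives could not turn the direction of a called gene. Members called were 6 higher and 3 lower. With no filter on low values 17947 rows were tested and 1 member was higher, namely Adam32, while all 6 reported rises and Mmp15 lost their call, and all rows gave 641 rises and 414 falls and the related genes 3 and 0. Median-of-ratios scaling gave 2 members higher, 946 rises over all rows and 9 related genes higher. Quantile normalization gave 2 members higher, 992 rises over all rows and 1 related gene lower. Equal FPKM sums gave 11 members higher, 4899 rises over all rows, and 31 related genes higher and 1 lower. Without a variance trend 1 related gene was lower. The authors' q-values gave 685 rises over all rows. Leaving out each library in turn, with 1 residual degree of freedom and the lone sample assumed to vary like the other group, gave 0 to 10 members higher and 1 to 3 lower, 145 to 1531 rises and 142 to 849 falls over all rows, and 1 to 20 related genes higher and 0 to 2 lower. Without Cdk8Tg replicates 1 and 2 and WT replicates 1 and 2, 8, 3, 2 and 1 of the 9 called members kept their call. The causes were not tested.

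The titles give the groups the same replicate numbers, but nothing says that a number marks a shared litter or day. Deviations of same-numbered libraries from their group means had a correlation of -0.03 over 11888 rows. With 2 libraries per group this compares only the difference within each group, over genes that are not independent. It cannot show whether the numbers pair the libraries. With the replicate number as a block 6 members were higher and 4 lower, all 9 calls were kept and Timp4 was added (log2 change -0.55, adjusted p = 0.025), with 1855 rises and 970 falls over all rows.

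Of 222 values of named genes under alternatives, 163 kept their side of the threshold, 43 lost the call and 8 gained it. The 8 that changed sign were never called. With equal FPKM sums Adamts1 was at 0.10 and Timp3 at 0.18, and with quantile normalization Mmp11 was at -0.037 and Timp3 at 0.019. Leaving out each library in turn gave log2 changes of -0.18 to 0.028 for Adamts1 (above 0 without WT replicate 1), -0.0051 to 0.26 for Mmp11 (below 0 without Cdk8Tg replicate 1) and -0.35 to 0.32 for Timp3 (above 0 without Cdk8Tg replicate 1 or WT replicate 2). Genes under about 1 FPKM rested on few fragments.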
